A study of Mus musculus with 38 samples.

Results

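Wild type mouse retina was compared at 18 and 6 months of age, an interval that falls within adult life. The comparison rests on 6 of the 15 bulk RNA libraries, 3 at each age, out of 38 samples in the series. All 6 are labelled Kdm3b wild type, where Kdm3b encodes a histone demethylase acting on H3K9, and none carries an edited allele or a treatment. The labels give the tissue, the genotype and, in the titles, the age, but no strain, sex, housing or batch. They leave unsaid whether a library holds 1 animal or a pool and whether replicates come from different animals. Each p-value thus reflects variation among libraries, which may be technical. In the main fit that variation was estimated from all 15 bulk libraries. The remaining bulk groups are 1- and 12-month wild type retina and 12-month retina of Kdm3b heterozygotes.

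The retina is a layered nervous tissue in which rods far outnumber cones, and light signals pass through bipolar cells to ganglion cells, with Müller glia spanning all layers. Ageing of this tissue is known for slow loss of rods and ganglion cells, changes in dendrites and synapses, and a rise of glial and immune genes. In RNA from whole retina, fewer cells of a type and less RNA per cell cannot be told apart. The deposited table names features by Ensembl transcript identifier, and 0 of them could be paired with a gene symbol through the tables used here. Cell type markers could therefore not be checked, and results are given by transcript.

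Levels are in CPM, counts relative to the library total after scaling by median-ratio size factors, which set the typical transcript equal between libraries. Of 142699 transcripts, 3863 had a mean of at least 50 CPM over the 6 libraries and were kept. The transcripts nearest that limit were at 50.011 CPM on the inside and 49.997 CPM on the outside. Those kept held 65.07% to 69.08% of the counts in each of the 6 libraries, whose totals ran from 17218208 to 19531015. Of the 3863, 3796 had a count above 0 in all 6 libraries, and 67 had a count of 0 in 1 or more of them.

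The 6 libraries did not group by age. At 18 months, replicates 2 and 3 were alike, with a Spearman correlation of 0.963 across the transcripts kept, while replicate 1 reached 0.75 and 0.744 with them. At 6 months, replicates 2 and 3 reached 0.854, while replicate 1 reached 0.698 and 0.743 with them. Replicate 1 at 6 months was closer to the 18-month libraries, at 0.831, 0.872 and 0.854, than to its own age. Over all 15 libraries it was most like replicate 1 of wild type (0.923) and of heterozygous retina (0.921) at 12 months. The labels give no batch or date for these libraries, so whether a batch or an exchange of samples took part was not tested, and every comparison of the ages below holds for the libraries as labelled. These correlations run across transcripts of the same libraries, which are not independent, and are given as a description. For 2717 transcripts (70.3%), replicate 1 at 6 months lay nearer to the 18-month mean than to the mean of the other 6-month libraries. For replicates 2 and 3 at 6 months the shares were 32.3% and 33.5%. At 18 months they were 50.7% for replicate 1, 31.9% for replicate 2 and 33.5% for replicate 3.

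**Figure D1:**
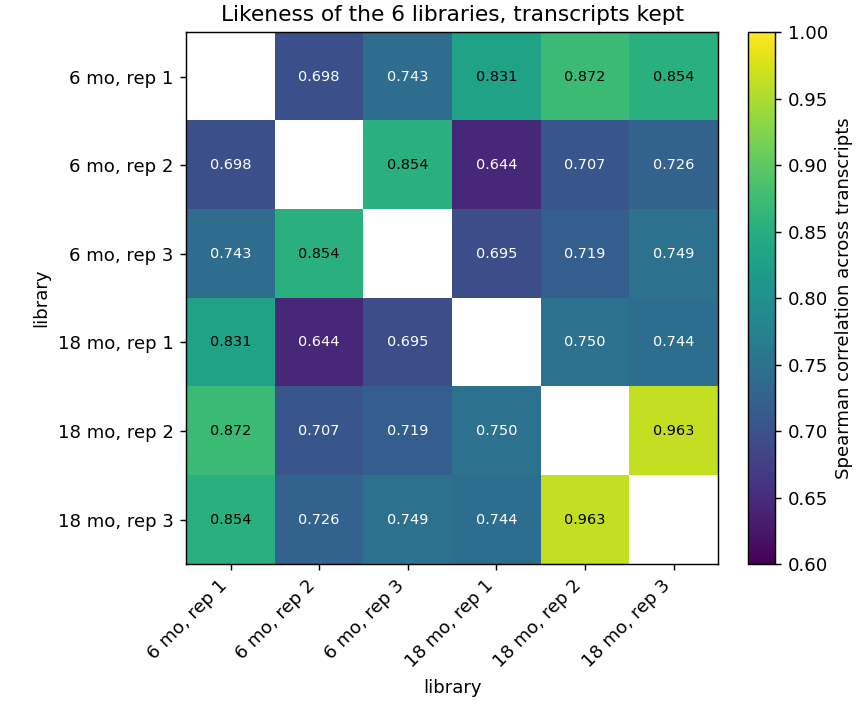
Spearman correlation, across the 3863 transcripts kept, between each pair of the 6 libraries, with colour and number giving the same value. The highest value, 0.963, joins replicates 2 and 3 at 18 months, and the row of replicate 1 at 6 months is higher against the 18-month libraries (0.831 to 0.872) than against its own age (0.698 and 0.743).

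The number of detected transcripts, those with a count above 0 in the whole table, also differed within each age. At 6 months it was 60517, 34477 and 51843 in replicates 1 to 3, and at 18 months 42474, 64913 and 56267. The ages overlapped, with an exact two-sided permutation p of 0.6, where 3 libraries against 3 cannot go below 0.1. The transcripts kept summed to 614428, 735302 and 734098 CPM at 6 months and to 635213, 644191 and 646662 CPM at 18 months. Replicates 2 and 3 at 6 months were thus above every 18-month library and replicate 1 was below all of them, with an exact permutation p of 0.4. The part of this difference in the results below was not tested.

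None of the 3863 transcripts passed edgeR's quasi-likelihood test for 18 against 6 months at an adjusted p of 0.05, a share of 0%, and the smallest adjusted p was 0.759. An unadjusted p under 0.05 was held by 226 transcripts (5.85%), of which 51 were higher and 175 lower at 18 months. That number was 602 without replicate 1, 84 without replicate 2 and 78 without replicate 3 at 6 months. Leaving out replicates 1 to 3 at 18 months in turn gave 316, 100 and 108. With the 12 wild type libraries alone, leaving out the heterozygous ones, it was 443, and with the 6 libraries alone 303. In both fits edgeR called 0, with a smallest adjusted p of 0.409 and 0.547. DESeq2 also called 0, with 277 at an unadjusted p under 0.05. limma voom with library weights called 1023 (26.5%), 309 of them higher and 714 lower, and without library weights it called 0 (397 at an unadjusted p under 0.05). Its weights were 0.207, 0.668 and 1 for replicates 1 to 3 at 6 months and 0.197, 3.57 and 3.8 at 18 months, so replicate 1 counted least at either age. Of the 1023, 75 were higher and 216 lower at 18 months in all 3 libraries, and for the rest the ages overlapped. Over all 3863 transcripts kept, these numbers were 169 (4.37%) and 460 (11.9%). The median standard error of a log2 fold change in the fit of all 15 libraries was 0.279, and the 95% interval of the typical transcript reached 0.605 to either side. That interval is for a single transcript, before adjustment over all 3863, and larger differences also did not pass. ENSMUST00000015877, with a log2 fold change of 0.84, had an edgeR adjusted p of 0.759. The absence of calls does not show that expression was equal.

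ENSMUST00000009174 had the lowest p of the transcripts kept and was the more abundant at 18 months. It was at 45.8, 48 and 36.7 CPM in replicates 1 to 3 at 6 months and at 71.6, 70.6 and 72.6 CPM at 18 months. The ages did not overlap, and the 18-month libraries were tightly grouped (43.5 ± 6 and 71.6 ± 0.989 CPM, SD, n = 3). The log2 fold change was 0.72 with a standard error of 0.177 (95% interval 0.33 to 1.1) and an edgeR adjusted p of 0.759. At 1 month it was at 53, 35.6 and 47.1 CPM, within reach of the 6-month values, and at 12 months at 61.9, 63.2 and 69.1 CPM, between the 6- and 18-month libraries. The order of the means was thus 6, 1, 12 and 18 months, and the means at 6 and 1 month did not differ beyond their spread.

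ENSMUST00000015877 was also higher at 18 months. It was at 77.3, 43.5 and 49.3 CPM at 6 months and at 85.8, 113 and 105 CPM at 18 months (56.7 ± 18.1 and 101 ± 13.9 CPM, SD, n = 3). The ages did not overlap, but replicate 1 was the highest library at 6 months and the lowest at 18 months, leaving a narrow gap. The log2 fold change was 0.84 with a standard error of 0.21 and an edgeR adjusted p of 0.759. At 12 months it was at 110, 99.3 and 96.4 CPM, the same range as at 18 months. The 1-month libraries, at 87.3, 74 and 77 CPM, lay around the highest 6-month value. Replicates 2 and 3 at 6 months were thus the lowest of the 12 wild type libraries.

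ENSMUST00000152227 was lower at 18 months. It was at 88.4, 123 and 128 CPM at 6 months and at 79.1, 69.1 and 66.6 CPM at 18 months (113 ± 21.5 and 71.6 ± 6.64 CPM, SD, n = 3). The ages did not overlap, and again replicate 1 of each age lay nearest to the other. The log2 fold change was -0.66 with a standard error of 0.163 and an edgeR adjusted p of 0.759. Levels were 122, 133 and 107 CPM at 1 month and 98.4, 90.5 and 97.7 CPM at 12 months. Every 18-month library was thus below each of the younger wild type ones, which is a description, since part of these values chose the transcript.

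ENSMUST00000069600, the most abundant of the 4, was lower at 18 months as well. It was at 248, 275 and 309 CPM at 6 months and at 186, 173 and 187 CPM at 18 months (278 ± 30.6 and 182 ± 8.15 CPM, SD, n = 3). All libraries at 18 months were below all at 6 months. The log2 fold change was -0.61 with a standard error of 0.156 and an edgeR adjusted p of 0.759. At 12 months it was at 177, 214 and 186 CPM, overlapping the 18-month libraries, and at 1 month at 247, 320 and 240 CPM, overlapping those at 6 months. The younger ages were thus together and the older ages together for this transcript.

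**Figure D2:**
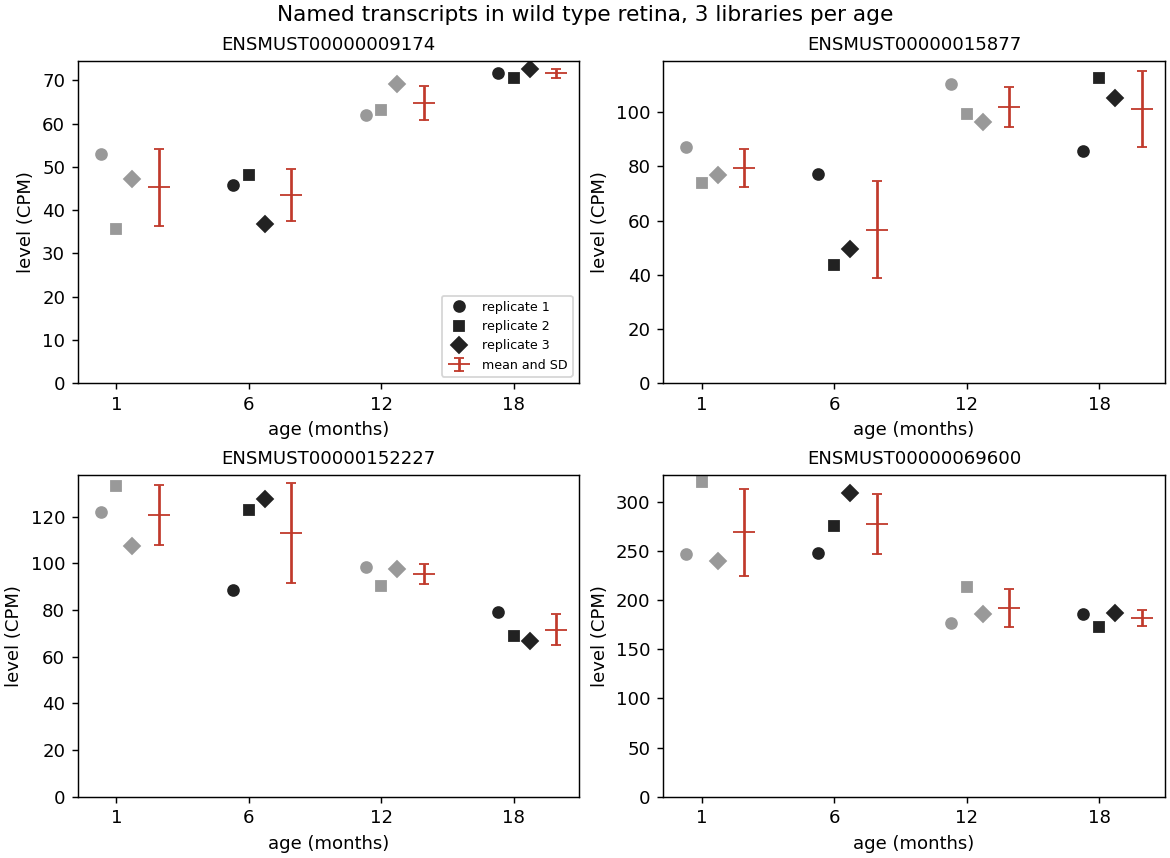
Level in CPM of the 4 named transcripts against age, with 1 symbol per library (circle, square and diamond for replicates 1, 2 and 3), 6 and 18 months in black and 1 and 12 months in grey, and the mean and SD in red. ENSMUST00000009174 and ENSMUST00000015877 are higher at 18 than at 6 months in 3 of 3 libraries, and ENSMUST00000152227 and ENSMUST00000069600 are lower in 3 of 3.

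Across all transcripts kept, fitted differences between the ages were mostly below 2-fold. The log2 fold change ran from -0.67 at the 5th percentile to 0.57 at the 95th, with a median of -0.10. The median absolute difference of the age means was 0.251 on the log2 scale. The median SD of single libraries within an age was 0.278 at 6 months and 0.204 at 18 months. A mean of 3 libraries varies less than a single library, so the difference of means and the SD are not like measures. The SD was the larger at 6 months for 2432 transcripts (63%). Replicates 2 and 3 differed from each other by a median of 0.207 on the log2 scale at 6 months and by 0.097 at 18 months.

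All 3 libraries at 18 months lay above all 3 at 6 months for 169 transcripts (4.37%) and below them for 460 (11.9%), together 629 (16.3%). Without replicate 1 at 6 months the total was 2002 (51.8%), and without replicate 1 at 18 months 1572 (40.7%). Leaving out replicate 2 or 3 gave 21.4% and 21.1% at 6 months, and 20% and 20.4% at 18 months. Fewer libraries leave less room for overlap, to the same extent in each of these cases, while the largest shares were those without replicate 1 of either age. Over all 6 libraries, the median log2 fold changes of the 169 and the 460 transcripts were 0.44 and -0.41, so typical members differed by less than 2-fold. The preponderance of lower transcripts varied with the scaling. With size factors taken from the 6 libraries and the transcripts kept alone, the counts were 283 higher and 274 lower, and the median log2 fold change moved from -0.10 to 0.005. Such size factors set the typical transcript kept equal between these libraries, so a median close to no change was built in. The near-even counts go with this and do not decide whether lower transcripts prevail. With TMM scaling, under which 3824 transcripts reached the limit, the counts were 115 and 435. Lower transcripts then made up 79.1% of those without overlap, against 73.1% with the scaling used. All 169 higher transcripts, and 274 of the 460 lower ones, also did not overlap with the size factors from the 6 libraries. The move of the median made this easier for the higher transcripts and harder for the lower ones. The direction of the named transcripts did not turn under any of the 3 scalings, for which their choice by absent overlap left little room.

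**Figure D3:**
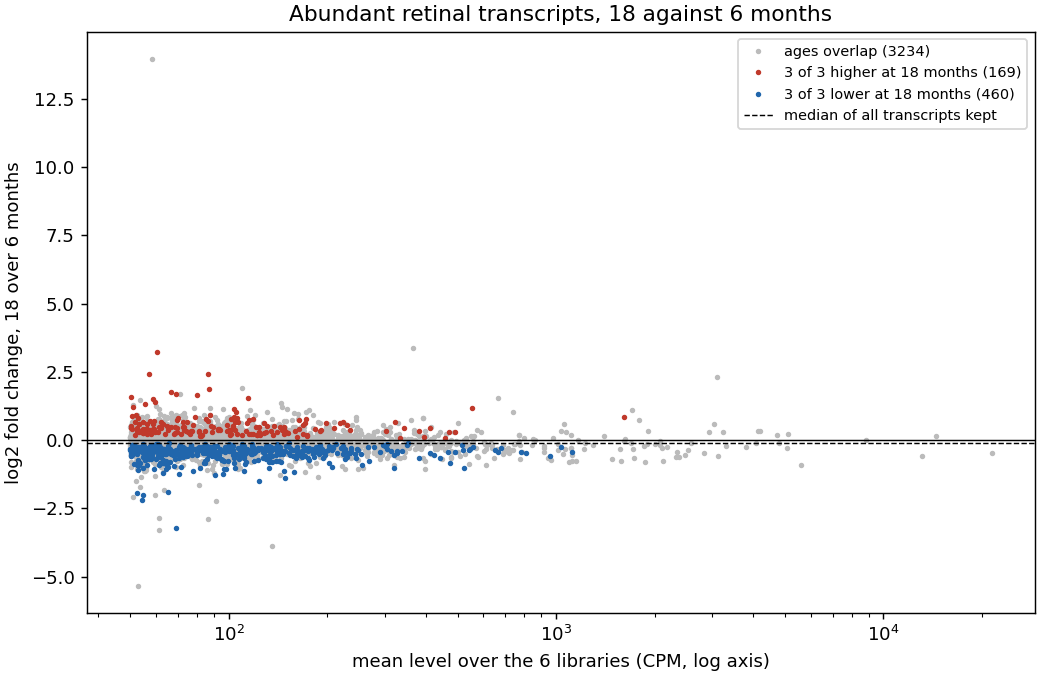
Log2 fold change of 18 over 6 months for each of the 3863 transcripts kept, against its mean level in CPM on a log axis, with transcripts whose libraries do not overlap between ages in red (169 higher) and blue (460 lower). The points centre just below 0, at a median of -0.10 (dashed line), and the red and blue points lie mostly within 1 log2 unit of it.

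Abundance changed these shares little, apart from the highest levels. From 50 to 100 CPM, 15.3% of 2234 transcripts did not overlap, and from 100 to 200 CPM 19.1% of 1081. From 200 to 500 CPM the share was 16% of 406, and above 500 CPM it was 11.3% of 142, of which 2 were higher and 14 lower at 18 months. The median log2 fold change went from -0.08 in the lowest of these ranges to -0.24 in the highest. With the scaling used, the median was thus the most negative at the highest levels, although the share of transcripts without overlap was the smallest there.

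Few transcripts differed by 2-fold or more. By fitted log2 fold change, 39 were at least 2-fold higher and 60 at least 2-fold lower at 18 months. The ages did not overlap for 16 and 26 of these, against 169 (4.37%) and 460 (11.9%) of all 3863. A large difference itself leaves less room for overlap. Of the 99 transcripts at least 2-fold apart, 74 (74.7%) also ranged over at least 2-fold among the 3 libraries at 6 months. Among the libraries at 18 months, 54 (54.5%) did so. Over all transcripts kept the shares were 17.1% and 10.6%. Only 10 of the 99 kept within 2-fold inside both ages, and none of these 10 overlapped between ages, 1 being higher and 9 lower at 18 months. A 2-fold difference beside narrower ranges within each age leaves little room for overlap, so this is a description. Of all 2962 transcripts that kept within 2-fold inside both ages, 568 did not overlap, against 629 of all 3863 (16.3%). Narrow ranges themselves leave less room for overlap. At the far end, 1 transcript had a fitted log2 fold change of 14.0 although its ages overlapped. It was at 0 CPM in all 3 libraries at 6 months and in replicates 2 and 3 at 18 months, and at 351 CPM in replicate 1 at 18 months, so the fitted value rests on 1 library.

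An expected count is a share of reads where transcripts overlap in sequence, so whole counts mark transcripts whose reads were not divided. In all 6 libraries, 223 of the transcripts kept (5.77%) had whole counts, to within 0.004. Of these, 15.7% did not overlap between ages, against 16.3% of the 3640 others. At least 2-fold differences were held by 1.79% of the former and 2.61% of the latter. The median SD within an age was 0.199 and 0.175 for whole counts at 6 and 18 months, and 0.283 and 0.207 for the others. Transcripts with divided reads thus varied more between replicates, and no whole-count transcript passed edgeR's test when these were fitted alone (21 with an unadjusted p under 0.05).

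Levels at 1 and 12 months were then read for the transcripts whose ages did not overlap. These libraries took no part in judging overlap, other than through the size factors, which were set over all 15 libraries. Among the 169 higher at 18 months, the mean at 12 months lay above that at 1 month for 121 (71.6%), against 49% of all transcripts kept. Among the 460 lower at 18 months, it lay below for 294 (63.9%), against 51%. These shares depended on the libraries at 1 month. With replicates 2 and 3 alone they were 75.1% and 73.9%, against 46.6% and 53.4% of all transcripts kept. With replicate 1 alone they were 50.3% and 32.8%, against 54.6% and 45.4%. Both shares were then below those of all transcripts kept, and in the lower set the direction turned. Replicates 2 and 3 at 1 month detected 37489 and 40426 transcripts and replicate 1 detected 57881. The part of that difference in these shares was not tested.

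Library by library, the same split appeared. Relative to the mean of the 4 ages, the median log2 level of the 169 higher transcripts was 0.105 in replicate 1 at 1 month and -0.349 and -0.224 in replicates 2 and 3. At 6 months it was 0.008 in replicate 1 and -0.25 and -0.189 in the others. The 12-month libraries stood at 0.159, 0.074 and 0.121, and those of 18 months at 0.222, 0.273 and 0.278. For the 460 lower transcripts, replicate 1 was at -0.128 at 1 month and at 0.04 at 6 months, while replicates 2 and 3 were at 0.228 and 0.194, and at 0.261 and 0.276. In the same set, 12-month medians were -0.007, -0.032 and 0.01, and 18-month medians -0.242, -0.188 and -0.189. Values at 6 and 18 months chose these transcripts and are a description. At 1 month, replicate 1 lay on the side of the older libraries in both sets, and replicates 2 and 3 on the side of the 6-month ones.

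**Figure D4:**
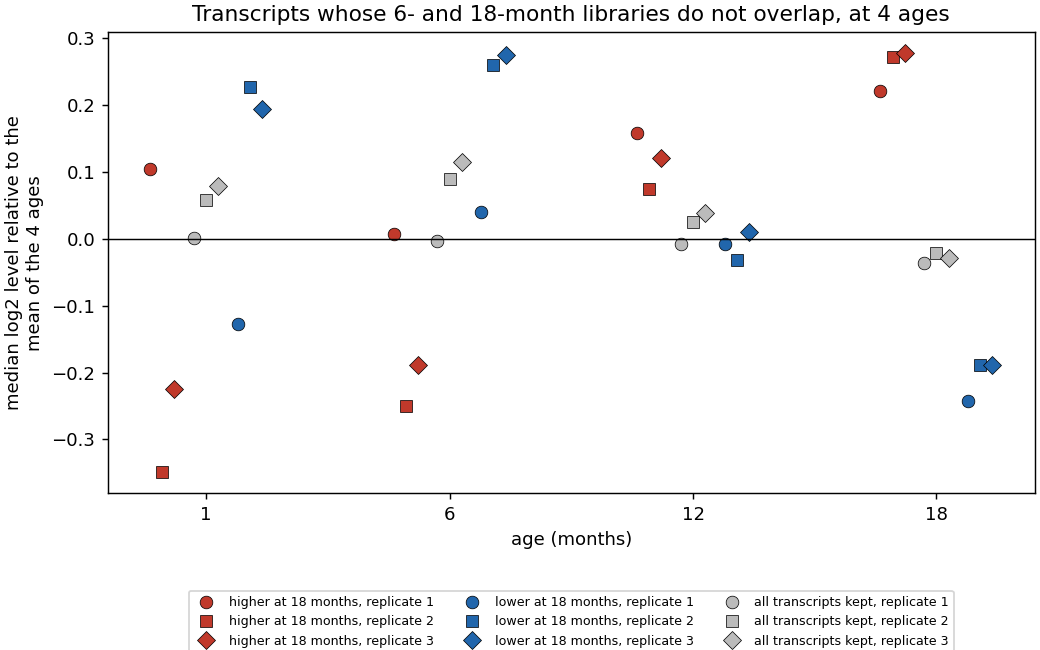
Median log2 level, relative to the mean of the 4 wild type ages, of the transcripts higher (red, 169) or lower (blue, 460) in all 3 libraries at 18 than at 6 months and of all 3863 kept (grey), with 1 symbol per library. Values at 6 and 18 months chose the sets. At 1 month, replicate 1 (circles) lies at 0.105 and -0.128, on the other side of 0 from replicates 2 and 3.

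The mean at 12 months lay between those at 6 and 18 months for 89 of the 169 higher transcripts (52.7%) and for 295 of the 460 lower ones (64.1%), against 35.2% of all transcripts kept. The wider gap between the ages in these sets leaves more room for a value to fall between them. At 1 month, the mean lay below both for 79 of the higher set (46.7%), and above both for 138 of the lower set (30%), against 30.7% and 36.6% of all transcripts kept.

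Below the abundance limit, 1 transcript passed when edgeR's own low-count filter (filterByExpr over the 5 groups) replaced that limit and left 53952 transcripts to test. ENSMUST00000152103, named because it was the only call, was at 63.4, 94.3 and 22.2 CPM at 6 months and had 0 reads in all 3 libraries at 18 months. Against a floor of 3 counts per library, which covers counting error only, its 6-month mean was at least 380-fold above the 18-month level. That figure is for the mean (59.98 ± 36.15 CPM, SD, n = 3), and replicate 3 at 6 months, at 22.2 CPM, was closer to the floor. The edgeR adjusted p was 0.0231 among those 53952 and 0.0387 among transcripts of at least 10 CPM. With no filter beyond a count in at least 1 library, which left 98425, 0 transcripts passed edgeR's test, 4265 had an unadjusted p under 0.05 and the smallest adjusted p was 0.0949. It was present at 12 months, at 47.8, 88 and 99.1 CPM, and at 1 month, at 122, 87.9 and 64.9 CPM. Since expected counts divide reads among overlapping transcripts, 0 reads can also mean that they were given to another one. This was not tested.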

How the data were processed

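The deposited values are expected counts per Ensembl transcript, estimated by the authors. Tools listed without roles in the submitters' processing notes include RSEM 1.3.3 and STAR 2.7.1a, with Trim Galore 0.6.6, CASAVA, edgeR 3.36.0 and DESeq2 1.32.0, and the builds GRCm38 and mm10; annotation release and strand setting are not given in the sources used here. Counts were rounded to whole numbers. All 15 bulk libraries (5 groups of 3) entered 1 edgeR fit (4.0.16, R 4.3.3; robust quasi-likelihood test, 10 residual degrees of freedom) on the 3863 transcripts that averaged 50 CPM or more over the 6 libraries compared, with Benjamini-Hochberg adjustment over these. Log2 levels outside the fit used log2(CPM + 1). Standard errors were derived approximately from F statistics. The named transcripts are, in each direction, the 2 with the lowest p among those with ages that do not overlap and a count in all 6 libraries; more were not named because identifiers could not be paired with genes. For the same reason the planned gene-level test and gene lists were not run. The comparison, its abundance limit and the lists were chosen with earlier results of these data known. As a check for a library deposited more than once, pairs of the 6 libraries were compared: replicates 2 and 3 at 18 months, the most alike, varied 23.8 times more than counting alone gives, and all 6 were counted separately. DESeq2 (1.42.0), limma voom (3.58.1) and other scalings, filters and sets of libraries were alternatives. The 4 single-cell and 19 chromatin samples were not analysed here.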

Additional observations from a re-analysis of the deposited data

How the results depend on the processing

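edgeR's test called 0 transcripts under TMM scaling, other size factors, a minimum of 200 CPM, no filter, the 6 libraries alone, the 12 wild type libraries, whole counts and each of the libraries left out. It called 1 with a minimum of 10 CPM or with filterByExpr. Weighted limma voom called 1023. The 4 named transcripts had 77 alternative values: 0 changed sign, and 4 newly passed the threshold, all in weighted voom. These transcripts were chosen for a low p and ages that do not overlap, which left little room for a change of sign. Size factors from the 6 libraries and kept transcripts gave 283 transcripts above and 274 below without overlap. A minimum of 10 CPM gave 831 and 1176 (2007 in all), one of 200 CPM 17 and 64 (81), and whole counts 9 and 26 (35), since the number tested changed. Leaving out 1 library gave 208 to 670 above and 562 to 1332 below (773 to 2002), highest without replicate 1 at 6 months (2002) and at 18 months (1572). Without the pair with most zeros, replicate 2 at 6 months and replicate 1 at 18 months, there were 695 and 1232 (1927), and leaving out replicate 1 of both ages gave 1045 and 1789 (2834), where edgeR still called 0 (smallest adjusted p 0.105). With fewer libraries fewer can overlap. Other size factors, whole counts, voom without weights, both replicates 1 left out and all leave-outs of the non-overlapping counts were chosen after the data were seen.

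With the replicate block edgeR called 0. A pairing by number was not shown: 2 of 3 same-numbered pairs correlated above 0.1 (0.144, 0.112 and 0.084), and 4 of 6 libraries matched best with their own number. The gene-level and list alternatives were not run.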

Other observations

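The heterozygous libraries at 12 months were not among the 6 libraries compared, but they entered the size factors and the main edgeR fit. On the same scale as for the wild type ages, the median of the 169 transcripts higher at 18 months was 0.07, 0.095 and 0.222 in replicates 1 to 3, and that of the 460 lower ones was 0.151, -0.014 and -0.681. Replicate 3 was the lowest of all 15 libraries for the lower set. It also had the most zeros among the transcripts kept, 75 of 3863, and its median over all transcripts kept was -0.169. Its Spearman correlation with the other libraries ran from 0.367 to 0.641, and its voom weight, 0.107, was the lowest of the 15. The part of this 1 library in the spread of the main fit was not tested.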
